A study of Mus musculus with 49 samples.

Results

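The thioredoxin and peroxiredoxin genes of the mouse urinary bladder are described here across every dose and both harvests of an arsenate drinking-water study. The set holds 10 genes chosen by name: Txn1, Txn2, Txnrd1, Txnrd2, Txnip, Prdx1, Prdx2, Prdx3, Prdx5 and Prdx6. A gene was read from its brightest probe set among those that the array annotation pairs with a single gene. This gave 7 of the 10 genes, among 18193 genes with such a probe set. Prdx1 had 5 probe sets that are all shared with a second gene, and the annotation used here pairs no probe set with Prdx5 or Prdx6, so these 3 genes were not analysed here. All 7 measured genes lay above the 40th percentile of signal on each of the 49 arrays, and they were tested together with all 14646 genes that passed that filter in at least 4 arrays.

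Female C57Bl/J mice drank water containing arsenate, a pentavalent inorganic arsenic salt, at 0 (water only), 0.5, 2, 10 or 50 ppm. After 1 week, at an age of 76 days, bladders were taken from 4 mice at 0.5 ppm and 5 mice in each other group. After 12 weeks, at 155 days, they were taken from 5 mice in each of the 5 groups. RNA of each whole bladder was hybridized to 1 Affymetrix Mouse430_2 array, without pooling, so that the p-values below measure the spread between mice. The mouse labels begin with a number that is constant within each group and is not explained, and its effect and that of dose cannot be told apart. Values are the deposited linear intensities as log2(intensity + 16). A difference is dose minus water of one harvest on that log2 scale ± SE, with p-values from limma adjusted over all genes by Benjamini-Hochberg, and a gene is called at an adjusted p under 0.05.

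The thioredoxin system passes electrons from NADPH to oxidized proteins. Thioredoxin reductases, which are selenoproteins, reduce thioredoxins, and thioredoxins in turn reduce peroxiredoxins, which break down hydrogen peroxide, as well as ribonucleotide reductase and other clients. One set of these proteins serves the cytosol and nucleus (Txn1, Txnrd1, Prdx1, Prdx2) and another the mitochondrion (Txn2, Txnrd2, Prdx3). Txnip, an arrestin-domain protein, binds reduced thioredoxin and holds back its activity, and it also limits glucose uptake. The transcription factor NRF2 activates several genes of the system through antioxidant response elements, and trivalent arsenic, to which cells reduce arsenate, binds the paired thiols of thioredoxin reductase.

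The short core of the antioxidant response element, TGACNNNGC on either strand, was searched in the promoter windows of RefSeq, 250 bases before to 50 after each annotated start on GRCm38.p6. It stood in 2 of 11 windows of 9 of the 10 genes. Across all 32851 windows 4071 held it, or 12.4%. Both matches in the set lay on the minus strand of a gene on the plus strand, so the core reads GCNNNGTCA below. They are shown because this core is the letters that NRF2 is known to bind, together with the matches of Gclm, the modifier subunit of the enzyme that starts glutathione synthesis, and Srxn1, the sulfiredoxin that repairs overoxidized peroxiredoxins. Capitals mark the 9 bases of the core.
Txnrd1, second annotated start, chr10:82859096-82859140, plus strand: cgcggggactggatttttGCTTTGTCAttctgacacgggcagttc
Prdx1, chr4:116685448-116685492, plus strand: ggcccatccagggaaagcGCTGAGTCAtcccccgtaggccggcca
Gclm, chr3:122245405-122245449, plus strand: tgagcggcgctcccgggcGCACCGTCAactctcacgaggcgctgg
Srxn1, chr2:152105534-152105573, plus strand: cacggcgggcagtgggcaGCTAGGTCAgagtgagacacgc
A match is a description of these letters and not evidence of binding. The windows of Txn1, Txn2, Txnrd2, Txnip, Prdx2, Prdx3 and Prdx5 held no match. Of the genes outside the set that were searched with Gclm and Srxn1, the windows of Nqo1, Prdx4 and Txnrd3 held no match either.

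None of the 7 measured genes passed the test at any dose of either harvest. The 7 genes gave 56 differences between a dose and water, of which 0 were called, 4 had an unadjusted p under 0.05 and 0 showed dose arrays and water arrays that did not overlap. The furthest difference was -0.33, and none exceeded 0.5 in size. In 55 of the 56 the 95% interval of the fold change lay within 1.5-fold of water in both directions. The exception was Txnrd2 at 0.5 ppm after 12 weeks, whose interval reached down to 0.638 of water.

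These counts stand beside a background of few calls over all genes. At 1 week 0 of the 7 genes were called at each dose, where 0.0478% of all genes were called at 0.5 ppm, 0% at 2 ppm, 0.778% at 10 ppm and 0.335% at 50 ppm. At 12 weeks 0 of 7 were called at each dose, against 0.526% of all genes at 0.5 ppm, 0.0137% at 2 ppm, 0.335% at 10 ppm and 4.05% at 50 ppm. In the slopes over dose rank 0 of 7 were called, against 0.266% of all genes at 1 week and 5.24% at 12 weeks. The highest of these shares is less than 1 gene in 7, so a count of 0 does not set the genes apart from the rest. The share of genes whose dose and water arrays did not overlap was 6.75%, 1.61%, 5.69% and 2.52% from 0.5 to 50 ppm at 1 week, and 3.95%, 2.1%, 3.2% and 5.85% at 12 weeks.

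These intervals hold for the brightest probe set of each gene in a fit without covariates, and other probe sets and covariates, given with the genes below, moved some values further. The spread between mice of a group was small: the within-group SD was 0.11 log2 units for Prdx3 and 0.12 for Prdx2, 0.13 for Txnrd1, 0.14 for Txn1, 0.18 for Txn2, 0.19 for Txnip and 0.21 for Txnrd2. Across all tested genes the median within-group SD was 0.26, and the means of the 10 groups spanned a median of 0.54. These medians cover genes of every brightness. Apart from Txnrd2 (54.1%), each of the 7 genes was brighter than 85.2% to 99.0% of tested genes, and genes of like brightness were not compared. For the 7 genes the 10 group means spanned 0.23 (Txnrd1, Prdx2 and Prdx3) to 0.46 (Txnip). At 50 ppm and 12 weeks a difference of 0.27 for Prdx2, 0.28 for Prdx3, 0.29 for Txnrd1, 0.32 for Txnip, 0.35 for Txn1, 0.39 for Txn2 and 0.56 for Txnrd2 would have been called.

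**Figure D1:**
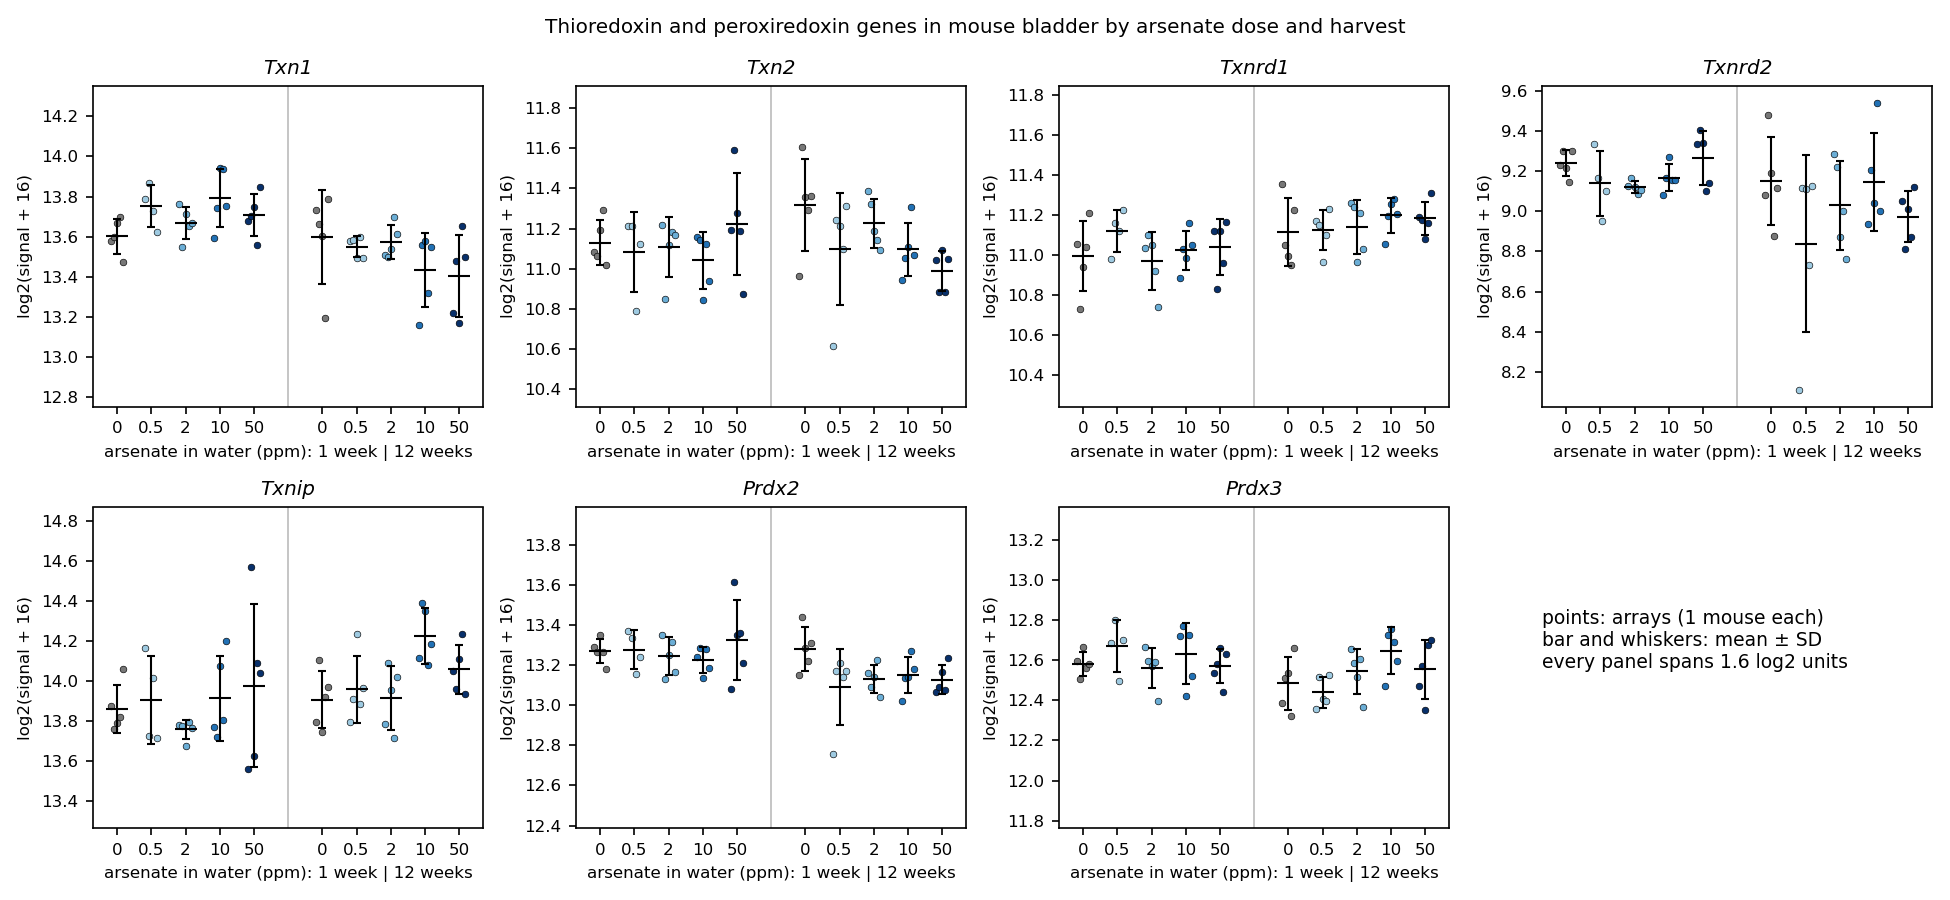
Log2(intensity + 16) of the 7 measured genes on each array, against the arsenate dose in ppm (0 is water) at 1 week (left of the grey line) and 12 weeks (right). Points are arrays of 1 mouse each, bars and whiskers are mean ± SD with n = 5 (n = 4 at 0.5 ppm, 1 week), and every panel spans 1.6 log2 units. Dose and water arrays overlap in all 56 pairs.

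Txn1 (chr4:57943373-57956411, GRCm38.p6, as for the genes below) encodes the cytosolic and nuclear thioredoxin. At 1 week its log2 signal was 13.58, 13.60, 13.67, 13.70 and 13.47 in water, 13.79, 13.87, 13.73 and 13.62 at 0.5 ppm, 13.76, 13.55, 13.71, 13.65 and 13.67 at 2 ppm, 13.59, 13.74, 13.94, 13.94 and 13.75 at 10 ppm and 13.68, 13.70, 13.75, 13.56 and 13.85 at 50 ppm. All 4 dose groups had a higher mean than water, and 4 arrays in each lay above the water mean. The largest difference, at 10 ppm, was 0.19 ± 0.08 (adjusted p = 0.196).

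At 12 weeks Txn1 had log2 signals of 13.73, 13.66, 13.61, 13.20 and 13.79 in water. It had 13.58, 13.59, 13.50, 13.60 and 13.50 at 0.5 ppm, 13.51, 13.50, 13.54, 13.70 and 13.62 at 2 ppm, 13.16, 13.56, 13.58, 13.32 and 13.55 at 10 ppm and 13.22, 13.48, 13.17, 13.65 and 13.50 at 50 ppm. Here all 4 dose groups had a lower mean than water, and replicate 4 of the water group lay below the other 4 water arrays. The differences were -0.16 ± 0.10 at 10 ppm (adjusted p = 0.432) and -0.19 ± 0.10 at 50 ppm (adjusted p = 0.25). The slope was -0.05 per dose rank (adjusted p = 0.183).

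A second Txn1 probe set was dim, at a mean of 6.51 and above the 40th percentile on 31 of 49 arrays, and correlated with the brighter one at -0.04 within groups. Its differences from 0.5 to 50 ppm were 0.49, 0.23, 0.77 and -0.13 at 1 week and 0.12, -0.31, -0.95 and -0.65 at 12 weeks, with none called (adjusted p from 0.246 to 0.954).

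The direction of the Txn1 differences thus ran opposite ways at the 2 harvests without a call at either. The difference between the harvests was tested over all 49 arrays. It was -0.35 ± 0.13 for the 10 ppm effect (adjusted p = 0.16) and -0.30 ± 0.13 for the 50 ppm effect (adjusted p = 0.132). Of the 7 genes 0 were called in this comparison at each dose, against 4.61% of all genes for the 0.5 ppm effect, 0% for 2 ppm, 1.37% for 10 ppm and 7.31% for 50 ppm. Without water replicate 4 of 12 weeks both Txn1 values were called, at -0.45 (adjusted p = 0.0371) and -0.40 (adjusted p = 0.0325). With the mean of both probe sets the harvest difference of the 10 ppm effect was -1.04 (adjusted p = 0.0735).

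Txn2 (chr15:77915051-77928994) encodes the mitochondrial thioredoxin, and of the 7 genes it lay furthest from water at 50 ppm after 12 weeks. Its log2 signals were 11.04, 10.88, 11.09, 10.88 and 11.05 at 50 ppm, against 10.97, 11.61, 11.36, 11.29 and 11.36 in water. All 5 arrays at 50 ppm were below the water mean, and the groups overlapped only through water replicate 1, the lowest water array. The difference was -0.33 ± 0.11 (adjusted p = 0.0874), with a 95% interval from -0.56 to -0.09.

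At the other doses of 12 weeks Txn2 stood at 11.10 ± 0.28 at 0.5 ppm, 11.23 ± 0.12 at 2 ppm and 11.10 ± 0.13 at 10 ppm (SD, n = 5 each), with a water mean of 11.32 ± 0.23. The slope was -0.07 per dose rank (adjusted p = 0.131). At 1 week the group means ran from 11.04 ± 0.14 at 10 ppm to 11.22 ± 0.26 at 50 ppm, and water was 11.13 ± 0.11. The harvest difference of the 50 ppm effect was -0.42 ± 0.16 (adjusted p = 0.0931).

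Single mice and the choice of probe set move the Txn2 values. Without water replicate 1 the 50 ppm difference of 12 weeks was called at -0.41 (adjusted p = 0.0233) and its harvest difference at -0.51 (adjusted p = 0.0307). The harvest difference was also called without replicate 5 of 50 ppm at 1 week, at -0.51 (adjusted p = 0.033). Without replicate 1 of 0.5 ppm at 12 weeks the slope was called at -0.08 (adjusted p = 0.0147). The other 2 Txn2 probe sets followed the same mice, with correlations of 0.75 and 0.80 to the brightest within groups, but their 50 ppm differences at 12 weeks were only -0.12 (adjusted p = 0.58) and -0.08 (adjusted p = 0.663).

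Txnrd1 (chr10:82833951-82897724), the cytosolic thioredoxin reductase, stayed close to water. At 12 weeks its log2 signals were 11.35, 11.05, 10.99, 10.95 and 11.22 in water, 11.17, 11.15, 10.96, 11.10 and 11.23 at 0.5 ppm, 11.26, 11.24, 10.96, 11.21 and 11.03 at 2 ppm, 11.05, 11.19, 11.26, 11.28 and 11.21 at 10 ppm and 11.19, 11.18, 11.08, 11.16 and 11.31 at 50 ppm. All dose arrays lay inside the range of the water arrays. The 4 differences were 0.01 to 0.08, and the 95% intervals ran from 0.892 to 1.19 of water. At 1 week the differences were -0.03 to 0.12 and the intervals ran from 0.862 to 1.25 of water.

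The 3 probe sets of Txnrd1 disagreed. A dimmer one, at a mean of 8.64, lay 0.28, 0.45, 0.32 and 0.38 above water from 0.5 to 50 ppm at 12 weeks, with none called (adjusted p = 0.421, 0.445, 0.37 and 0.196). The dimmest, at a mean of 6.80 and above the 40th percentile on 44 of 49 arrays, was called for the harvest difference of the 50 ppm effect at -1.24 (adjusted p = 0.0166), where the brightest gave 0.02. Their correlations with the brightest probe set within groups were 0.24 and 0.13. Which of them follows which transcript of the gene is not given in the sources used here.

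Txnrd2 (chr16:18426417-18479073), the mitochondrial reductase, varied most between mice. At 12 weeks its log2 signals at 0.5 ppm were 8.11, 9.12, 9.11, 8.73 and 9.12, against 9.08, 9.48, 9.19, 8.88 and 9.12 in water. Replicate 1 at 0.5 ppm lay far below the other 4. The difference was -0.31 ± 0.16 (adjusted p = 0.3), and those of 2, 10 and 50 ppm were -0.12, -0.0051 and -0.18. Without replicate 1 the 0.5 ppm difference was -0.13 (adjusted p = 0.733).

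At 1 week Txnrd2 differed from water by -0.12 to 0.03. Of its 3 dimmer probe sets, 1 was called in the 1-week slope at 0.10 per dose rank (adjusted p = 0.0456), where the brightest gave 0.01. At 12 weeks and 50 ppm the 4 probe sets were all lower than water, by -0.42 to -0.09, with none called.

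Txnip (chr3:96557957-96561857) was the gene of the set with the highest reading above water. After 12 weeks at 10 ppm its log2 signals were 14.12, 14.39, 14.35, 14.08 and 14.18, against 13.80, 14.10, 13.74, 13.92 and 13.97 in water. All 5 arrays lay above the water mean, and the groups overlapped through water replicate 2. The difference was 0.32 ± 0.09, a fold change of 1.09 to 1.42 (95% interval), with an unadjusted p of 0.00204 and an adjusted p of 0.103 in limma.

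At 50 ppm the Txnip signals were 14.05, 13.96, 14.11, 14.24 and 13.94, and the difference from the same water arrays was 0.15 ± 0.09 (adjusted p = 0.325). At 0.5 and 2 ppm the differences were 0.05 and 0.01. The slope was 0.06 per dose rank (adjusted p = 0.141).

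The second Txnip probe set, also bright at a mean of 13.29, gave larger values. Its differences at 12 weeks were 0.19, 0.25, 0.44 and 0.36 from 0.5 to 50 ppm, and its slope of 0.10 per dose rank was called (adjusted p = 0.0344 over 27078 probe sets). The 2 probe sets correlated at 0.81 within groups. At 1 week Txnip varied widely at 50 ppm, with 13.56, 14.57, 13.63, 14.09 and 14.04, against 13.88, 13.76, 13.79, 13.82 and 14.06 in water, and the difference was 0.12 ± 0.13 (adjusted p = 0.799).

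The hybridization controls, transcripts added at the hybridization step, moved with the Txnip readings. Their level was 11.76 ± 0.26 at 10 ppm and 11.72 ± 0.36 at 50 ppm, against 11.20 ± 0.10 in water at 12 weeks (SD, n = 5 each). Across arrays within groups Txnip correlated with that level at 0.60, a description over 49 arrays. With it as a covariate, the 10 ppm difference was 0.26 (adjusted p = 0.212), and its part in the second probe set's slope was not tested. The arrays of 10 ppm (11.39 to 12.04) and 50 ppm (11.37 to 12.23) all lay above those of water (11.09 to 11.32). This fit therefore cannot separate the control level from dose.

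Prdx2 (chr8:84969622-84974811), an abundant cytosolic peroxiredoxin, was lower than water at all 4 doses of 12 weeks. Its log2 signals were 13.15, 13.44, 13.29, 13.22 and 13.31 in water, 12.76, 13.17, 13.21, 13.14 and 13.17 at 0.5 ppm, 13.16, 13.09, 13.14, 13.23 and 13.04 at 2 ppm, 13.02, 13.14, 13.14, 13.27 and 13.18 at 10 ppm and 13.07, 13.09, 13.17, 13.08 and 13.23 at 50 ppm. Each of the 20 dose arrays lay below the mean of the 5 water arrays, although each dose group overlapped with water. The differences were -0.19 ± 0.08, -0.15 ± 0.08, -0.13 ± 0.08 and -0.15 ± 0.08 (adjusted p = 0.186, 0.531, 0.409 and 0.231). The 4 comparisons share the water arrays, so they are not 4 separate observations.

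At 1 week Prdx2 differed from water by -0.04 to 0.05. Its dimmer probe set was lower than water at 12 weeks only at 0.5 ppm, with differences of -0.05, 0.15, 0.20 and 0.02 from 0.5 to 50 ppm. The direction at 12 weeks therefore rests on the brighter probe set.

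Prdx3 (chr19:60864066-60874538), the mitochondrial peroxiredoxin, is read by a single probe set. At 12 weeks and 10 ppm its log2 signals were 12.47, 12.72, 12.76, 12.69 and 12.59, against 12.39, 12.51, 12.54, 12.32 and 12.66 in water, a difference of 0.16 ± 0.08 (adjusted p = 0.325). The groups overlapped, with 4 of the 5 arrays above the water mean. The other 3 doses of 12 weeks lay between -0.04 and 0.07 and the 4 doses of 1 week between -0.02 and 0.09.

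**Figure D2:**
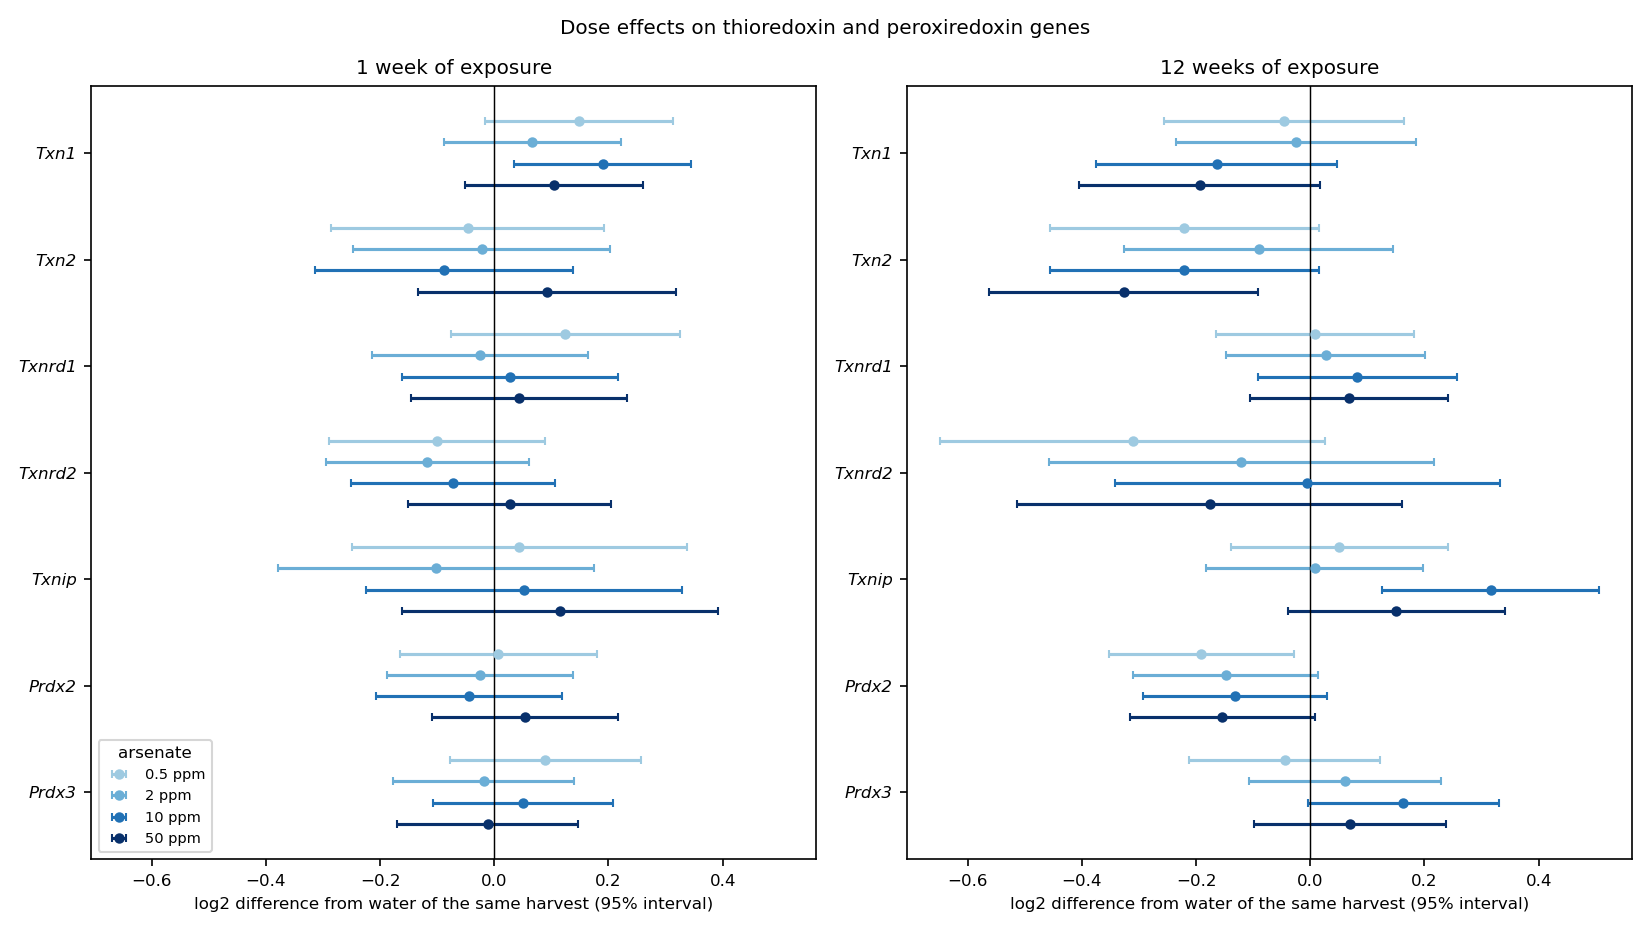
Log2 difference, dose minus water within a harvest (x axis), for the 7 measured genes at 0.5, 2, 10 and 50 ppm, from light to dark, at 1 week (left) and 12 weeks (right). Points are limma estimates and bars are 95% intervals, not adjusted for the number of genes. The intervals exclude 0 for Txn1 at 10 ppm after 1 week and, after 12 weeks, for Txn2 at 50 ppm, Txnip at 10 ppm and Prdx2 at 0.5 ppm, and none of these 4 was called.

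For each gene the order of the 10 groups is a description. Txn1, Txn2, Txnrd1, Txnrd2, Txnip, Prdx2 and Prdx3 had their highest means in the groups of 10 ppm at 1 week (13.79), water at 12 weeks (11.32), 10 ppm at 12 weeks (11.20), 50 ppm at 1 week (9.27), 10 ppm at 12 weeks (14.22), 50 ppm at 1 week (13.32) and 0.5 ppm at 1 week (12.67). Their lowest means were at 50 ppm of 12 weeks (13.40 and 10.99 for Txn1 and Txn2), 2 ppm of 1 week (10.97 for Txnrd1 and 13.76 for Txnip) and 0.5 ppm of 12 weeks (8.84, 13.09 and 12.44 for Txnrd2, Prdx2 and Prdx3). The spans of these means are given above, and the order of groups that stand next to each other was not tested. Between the water groups, which differ in age and in harvest, 0 of the 7 genes were called, against 13.3% of all genes. The differences, 12 weeks minus 1 week, ran from -0.10 for Prdx3 to 0.19 for Txn2.

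Mice of the same group differed in ways that some of the genes shared. Within groups, over 49 arrays, Txn2 correlated with Prdx2 at 0.81 and with Txnrd2 at 0.67, and Txnrd2 with Prdx2 at 0.61. The cytosolic pair Txn1 and Txnrd1 correlated at 0.29, Txn1 with Txn2 at -0.11 and Txnrd1 with Txnrd2 at 0.10. Txnip correlated with Txn1 at 0.03 and with Txnrd1 at -0.30. The points share arrays and scaling, so these values describe the arrays and carry no test.

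**Figure D3:**
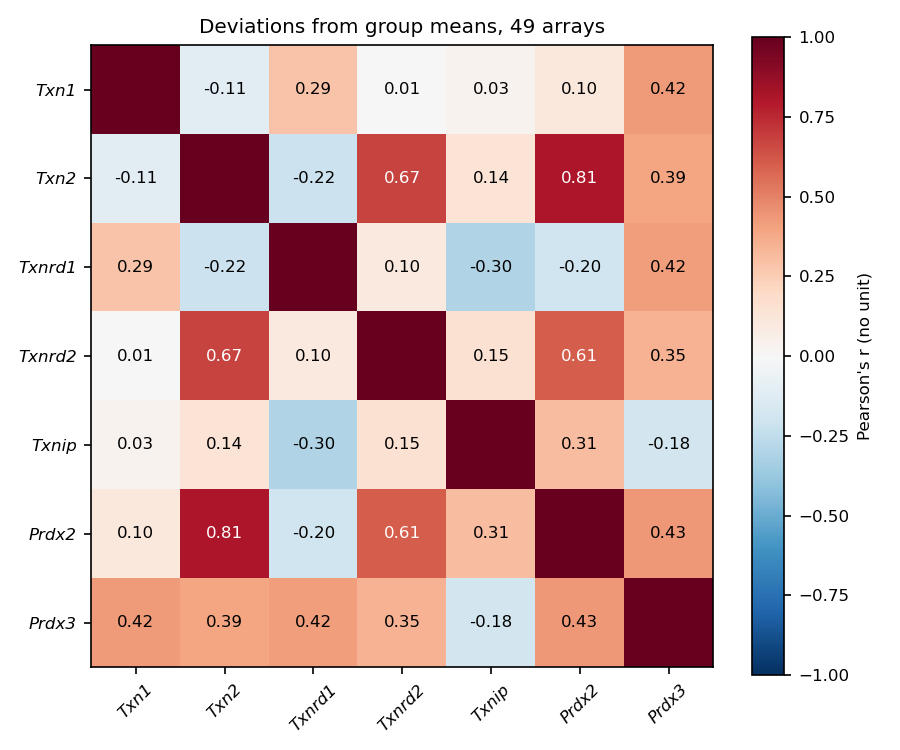
Pearson's r (no unit) between the 7 genes over 49 arrays, after subtracting each group's mean from its arrays. Txn2, Txnrd2 and Prdx2 form the block of highest values, 0.61 to 0.81.

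The same 3 genes moved with other measures of the arrays. Prdx2 correlated at 0.72 with the mean of 11 markers of superficial and intermediate urothelium (uroplakins and keratins among them), Txn2 at 0.51 and Txnrd2 at 0.46. Prdx3 was close to these, at 0.44. Prdx2, Txn2, Txnrd2 and Prdx3 also correlated with adipocyte markers at 0.33 to 0.42 and with fibroblast markers at -0.41 to -0.34. With the level of the poly-A spikes, transcripts added before labelling, Prdx2, Txn2 and Txnrd2 correlated at 0.55, 0.47 and 0.39. Prdx3 and Txnrd1 correlated with 10 smooth muscle markers at -0.52 and -0.51, and Txnip with them at 0.51. In whole bladders fewer cells of a type and less RNA per cell cannot be told apart.

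These measures differed between dose groups. The poly-A spike level at 12 weeks averaged 10.71 in water, 10.30 at 0.5 ppm, 10.21 at 2 ppm, 9.65 at 10 ppm and 9.84 at 50 ppm. With it as a covariate the 50 ppm differences at 12 weeks were 0.08 for Txn2 (adjusted p = 0.889), 0.10 for Prdx2 (adjusted p = 0.792) and 0.29 for Txnrd2 (adjusted p = 0.68), in place of lower values, and Txnrd2 at 10 ppm was 0.57 (adjusted p = 0.238). The 10 ppm arrays, at spike levels of 9.46 to 10.01, all lay below the water arrays, at 10.21 to 11.17. The 50 ppm arrays ran from 9.51 to 10.46. Dose and spike level thus went together at 12 weeks, and fits with this covariate, here and below, cannot separate them. The mean level of the 11 urothelial markers was 13.45 to 13.88 on the 50 ppm arrays, against 13.53 to 13.75 in water. The 10 smooth muscle markers averaged 13.93 at 50 ppm, with arrays from 13.78 to 14.19, against 13.59 in water, with arrays from 13.37 to 13.76. Every marker of both lists lay above the 40th percentile on all 49 arrays, with Upk1b and Upk3a of the urothelial plaque at means of 14.85 and 14.64 and the smooth muscle actin Acta2 at 15.28. The part of these measures in the results was not tested beyond the covariate fits.

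Pathway genes outside the set were counted in 7 lists of 67 tested genes. At 50 ppm 2 of 67 (2.99%) were called at 1 week, against 0.335% of all genes, and 3 of 67 (4.48%) at 12 weeks, against 4.05% of all genes. The 12-week share lies near that of all genes, and neither count sets the lists apart from the 7. Among 15 tested partners with a thioredoxin fold or a role beside it, 0 were called at 0.5 and 2 ppm of either harvest. At 1 week 1 fell at 10 ppm and 1 at 50 ppm, and at 12 weeks 0 at 10 ppm and 1 at 50 ppm. Of all genes 0.778% and 0.335% were called at 10 and 50 ppm of 1 week, and 0.335% and 4.05% at 12 weeks. The median difference of the list at 50 ppm was -0.02 at 1 week and -0.07 at 12 weeks, where all genes had medians of 0.01 and -0.04.

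Sesn3 was the partner called most often. Sestrins are stress-inducible regulators of nutrient signalling. At 1 week its log2 signals were 12.01, 11.85, 11.63, 11.39 and 11.42 in water, 11.89, 11.25, 11.36 and 11.30 at 0.5 ppm, 11.24, 11.80, 11.50, 11.02 and 10.52 at 2 ppm, 10.97, 10.92, 10.03, 10.70 and 11.09 at 10 ppm and 10.33, 11.16, 10.15, 10.82 and 10.25 at 50 ppm. The arrays of 10 and 50 ppm all lay below all water arrays. Sesn3 fell by 0.92 ± 0.22 at 10 ppm (adjusted p = 0.0459) and by 1.11 ± 0.22 at 50 ppm (adjusted p = 0.0134), and its slope was -0.29 per dose rank (adjusted p = 0.00336).

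The slope of Sesn3 was called without any single array, the 50 ppm difference was lost in 2 of 10 such fits and the 10 ppm difference in 9 of 10. The mean of its 2 probe sets gave -0.41 at 10 ppm (adjusted p = 0.158) and -0.63 at 50 ppm (adjusted p = 0.0387). With all arrays in one fit neither the 10 ppm difference (adjusted p = 0.0919) nor the 50 ppm difference (adjusted p = 0.0599) was called. The 10 ppm call was also lost without the filter (adjusted p = 0.0614) and with poly-A spikes as a covariate (adjusted p = 0.0586). At 12 weeks Sesn3 was already at 10.37 ± 0.52 in water (SD, n = 5), a difference of -1.29 from water at 1 week (adjusted p = 0.00153). No dose was called there, although 10 ppm lay 0.92 ± 0.30 above water (adjusted p = 0.144). The harvest difference was 1.83 ± 0.40 for the 10 ppm effect (adjusted p = 0.0108) and 1.35 ± 0.40 for the 50 ppm effect (adjusted p = 0.0303). Liver markers, 6 of 6 measured, averaged 7.02 at 50 ppm with arrays from 6.59 to 7.85, against 9.44 in water with arrays from 7.94 to 10.57 at 1 week. Their part in the Sesn3 difference was not tested.

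Txndc17, a small cytosolic thioredoxin-like reductase, fell at 50 ppm after 12 weeks. Its log2 signals were 12.32, 12.54, 12.28, 12.40 and 12.26 at 50 ppm, against 12.50, 12.77, 12.68, 12.49 and 12.70 in water. Only replicate 2 at 50 ppm reached into the water range. The difference was -0.27 ± 0.07 (adjusted p = 0.0413), lost in 7 of 10 fits without 1 array, and the slope was -0.08 per dose rank (adjusted p = 0.0205). The mean of its 4 probe sets was -0.17 at 50 ppm (adjusted p = 0.216), with a slope of -0.06 (adjusted p = 0.088). With poly-A spikes as a covariate neither the 50 ppm difference (adjusted p = 0.383) nor the slope (adjusted p = 0.502) was called. The same held with hybridization controls as a covariate (adjusted p = 0.071 and 0.132). The 50 ppm call was also lost with RNA integrity as a covariate (adjusted p = 0.0638) and with replicate number as a block (adjusted p = 0.0523).

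Tmx1, a thioredoxin-like membrane protein of the endoplasmic reticulum, rose over the doses of 12 weeks with a slope of 0.12 per dose rank (adjusted p = 0.0196). Its means were 10.46 ± 0.29 in water, 10.51 ± 0.35 at 0.5 ppm, 10.55 ± 0.08 at 2 ppm, 10.85 ± 0.16 at 10 ppm and 10.90 ± 0.11 at 50 ppm (SD, n = 5 each). With poly-A spikes as a covariate its slope was 0.03 (adjusted p = 0.855). Srxn1, Txnrd3 and Prdx4 were not called at 50 ppm. Srxn1 lay 0.24 above water at 1 week (adjusted p = 0.282) and 0.04 above it at 12 weeks. At 1 week its 50 ppm arrays (lowest 9.69) all lay above water (highest 9.66), where 2.52% of all genes did not overlap in either direction. Txnrd3, a testis-enriched reductase, differed by -0.38 at 12 weeks (adjusted p = 0.0654). Prdx4, the peroxiredoxin of the endoplasmic reticulum, differed by 0.01 at 12 weeks (adjusted p = 0.975).

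Among 9 glutaredoxins and methionine sulfoxide reductases, 1 fell at 50 ppm of 1 week and 1 rose at 0.5 ppm of 12 weeks. The shares of all genes called there were 0.335% and 0.526%. Glrx3, a glutaredoxin that carries iron-sulfur clusters, had log2 signals of 6.71, 6.30, 7.17, 7.10 and 6.63 at 50 ppm, against 7.55, 7.84, 7.66, 7.75 and 7.63 in water. The groups did not overlap. Glrx3 fell by 0.91 ± 0.18 (adjusted p = 0.0132), a call lost in 1 of 10 fits without 1 array. It was also lost with all arrays in one fit (adjusted p = 0.0599). Glrx3 is read by 1 probe set, which was dim. Its 1-week slope of -0.20 per dose rank was called, but not in 15 of 24 fits without 1 array or in 4 of 10 other settings.

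Msrb3, which repairs oxidized methionine, rose by 0.95 ± 0.20 at 0.5 ppm after 12 weeks (adjusted p = 0.0398), with 11.64, 10.47, 10.68, 10.87 and 10.80 at 0.5 ppm, against 10.49, 9.90, 9.64, 9.87 and 9.80 in water. Water replicate 1 lay just above the lowest dose array, so the groups overlapped. The call was lost in 8 of 10 fits without 1 array, and the next doses gave 10.58, 10.23 and 10.60 at 2, 10 and 50 ppm. It was also lost with the mean of all probe sets (0.91, adjusted p = 0.0638). The same held with RNA integrity (0.84, adjusted p = 0.195) and poly-A spikes (0.64, adjusted p = 0.32) as a covariate.

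Of 10 other peroxide and superoxide enzymes (glutathione peroxidases, catalase and superoxide dismutases), 0 were called at any dose or in either slope. Thioredoxin reductases depend on selenoprotein synthesis. Of 8 genes listed for selenoprotein synthesis, with the selenoproteins Selenop and Selenow among them, 0 were called at any dose, slope or harvest difference. The nearest at 50 ppm of 12 weeks was Selenop, the plasma selenium carrier, 0.24 ± 0.08 above water (adjusted p = 0.0682). Of 7 clients and partners of thioredoxin, among them Map3k5, the kinase that reduced thioredoxin restrains, and the ribonucleotide reductase subunits, 0 were called at any dose or slope.

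Txnip belongs to the alpha-arrestins, and of 7 tested arrestin-domain genes and regulators of Txnip transcription 1 rose at 50 ppm of 12 weeks. The share of all genes called there was 4.05%. Arrdc3, an adaptor that sends membrane receptors to degradation, had log2 signals of 9.24, 9.34, 9.17, 10.10 and 9.07 at 50 ppm, against 9.10, 8.00, 8.43, 8.68 and 8.47 in water. The groups overlapped through water replicate 1 alone. Arrdc3 rose by 0.85 ± 0.23 (adjusted p = 0.0373), lost in 6 of 10 fits without 1 array, and with poly-A spikes as a covariate the value was -0.020 (adjusted p = 0.99). At 1 week it was 8.12 ± 0.29 at 50 ppm, against 8.54 ± 0.42 in water (SD, n = 5 each), and the harvest difference of 1.27 ± 0.31 was called (adjusted p = 0.0105). The same covariate left it at 0.87 (adjusted p = 0.191).

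Of 11 tested genes of the NRF2 pathway, 1 rose at 50 ppm of 12 weeks and 2 rose in the 12-week slope, with 0 called at 1 week. Of all genes 4.05% were called at that dose and 5.24% in that slope, where 4 of the 67 listed genes (5.97%) were called. Hmox1, the heme oxygenase, had log2 signals of 9.08, 9.11, 9.02, 8.80 and 9.51 at 50 ppm, against 8.80, 8.38, 8.55, 8.35 and 8.12 in water. The groups did not overlap, but the lowest 50 ppm array stood at the level of the highest water array. Hmox1 rose by 0.66 ± 0.15 (adjusted p = 0.0202), lost in 2 of 10 fits without 1 array, and its slope was 0.15 per dose rank (adjusted p = 0.0159).

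Nqo1, the quinone reductase, had a slope of 0.15 per dose rank at 12 weeks (adjusted p = 0.0229), with means of 11.73 ± 0.27 in water, 11.46 ± 0.15 at 0.5 ppm, 11.58 ± 0.30 at 2 ppm, 12.16 ± 0.13 at 10 ppm and 12.14 ± 0.27 at 50 ppm (SD, n = 5 each). The means of 10 and 50 ppm stood above the other 3, although neither dose was called against water by itself (adjusted p = 0.135 and 0.0781). The slope was not called with poly-A spikes (0.17, adjusted p = 0.371) or hybridization controls (0.14, adjusted p = 0.11) as a covariate. Gclm and Srxn1, whose matched core is printed above, lay 0.07 (adjusted p = 0.627) and 0.04 (adjusted p = 0.806) above water at 50 ppm, and Txnrd1 0.07 (adjusted p = 0.649). With poly-A spikes as a covariate Hmox1 was 0.74 above water at 50 ppm but no longer called (adjusted p = 0.211).

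**Figure D4:**
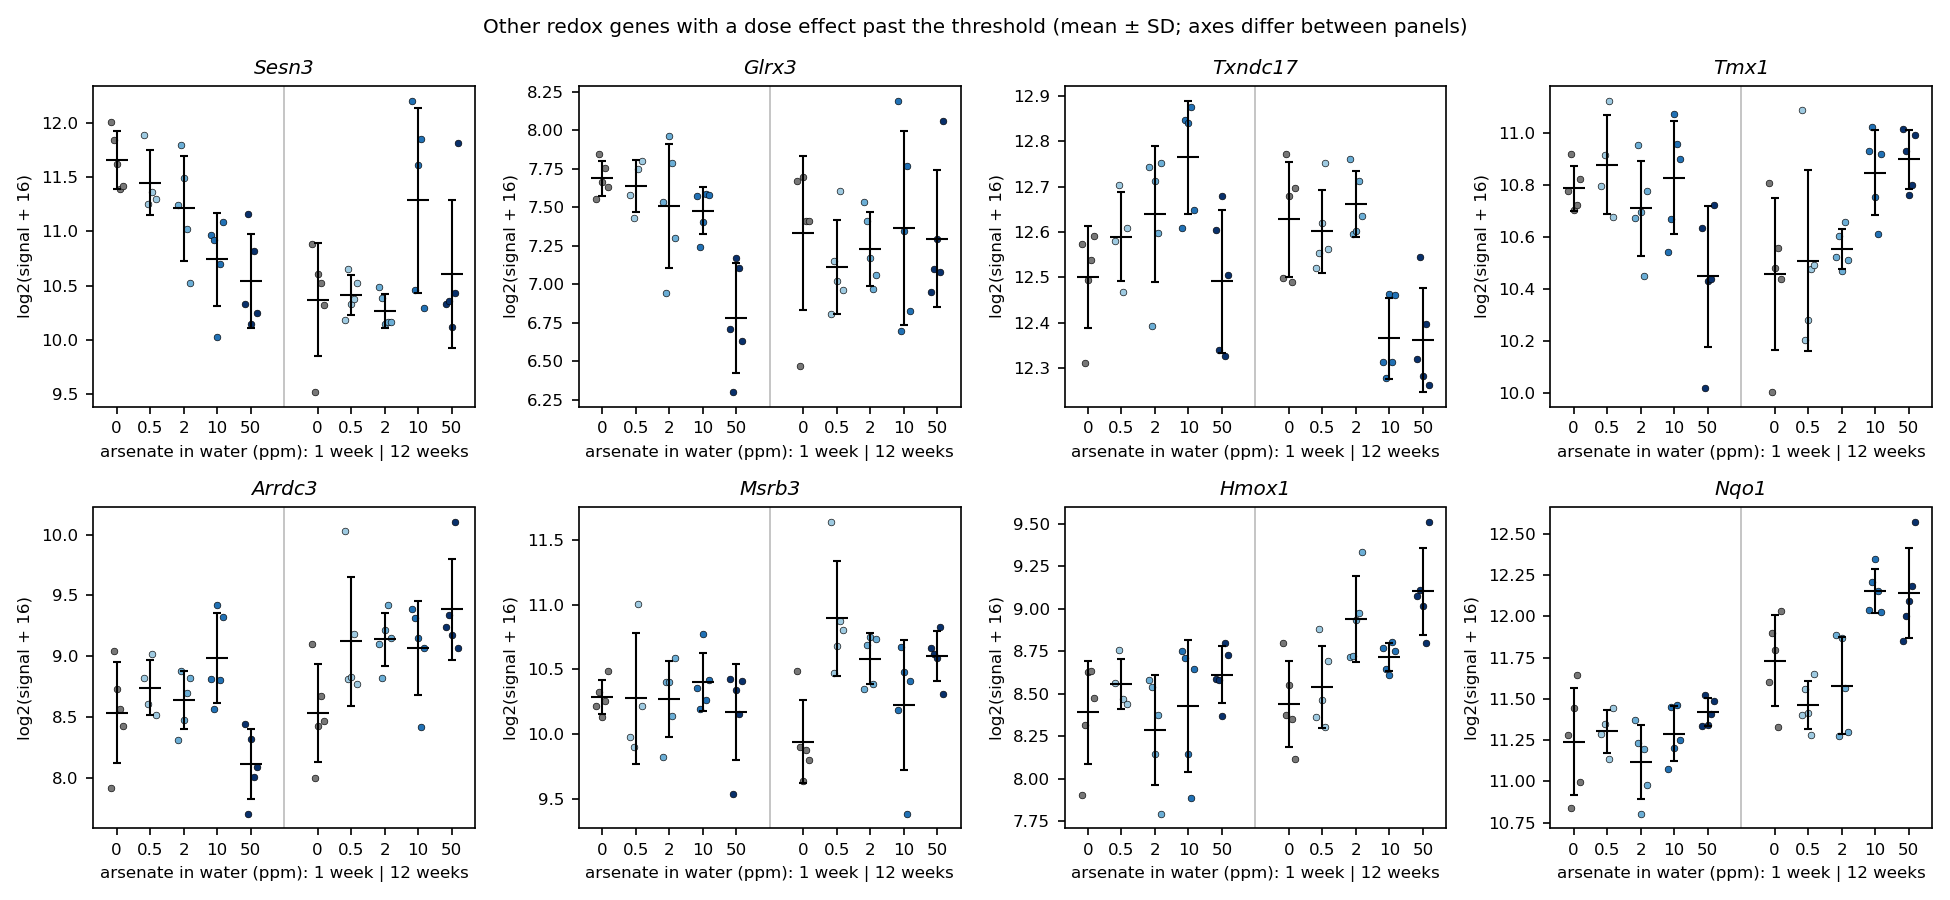
Log2(intensity + 16) of 8 other redox genes that were called at a dose or in a slope, on each array against the arsenate dose in ppm (0 is water) at 1 week (left of the grey line) and 12 weeks (right). Points are arrays, bars and whiskers are mean ± SD, and the axes differ between panels. Among the 1-week groups Sesn3 and Glrx3 are lowest at 50 ppm, and Hmox1 and Nqo1 are highest at 10 or 50 ppm of 12 weeks.

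Between the water groups 12 of the 67 listed genes (17.9%) were called, against 13.3% of all genes. Sesn2 was 0.70 higher at 12 weeks than at 1 week, Gpx2 0.66, Arrdc4 0.60, Nqo1 0.49 and Me1 0.43. The lower ones were Sesn3, given above, Rrm2 (-1.09), Gpx7 (-0.89), Msrb1 (-0.57), Prdx4 (-0.50), Gpx8 (-0.38) and Txndc5 (-0.34), with adjusted p-values from 6.37e-05 (Gpx7) to 0.0428 (Txndc5). The Txndc5 call was lost in 7 of 10 fits without 1 array and that of Nqo1 in 2 of 10. Age and harvest cannot be told apart in this comparison.

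The change of dose effects between harvests was called for 11 of the 67 listed genes over the 4 doses. By dose these were 4 (5.97%) for the 0.5 ppm effect, 0 for 2 ppm, 3 (4.48%) for 10 ppm and 5 (7.46%) for 50 ppm, against 4.61%, 0%, 1.37% and 7.31% of all genes. Besides Sesn3 and Arrdc3, given above, the 10 ppm effect was lower at 12 weeks than at 1 week for Txndc17 (-0.52, adjusted p = 0.00865) and Txndc12, a thioredoxin-like protein of the endoplasmic reticulum (-0.48, adjusted p = 0.016). The 50 ppm effect was higher for Rrm2, a ribonucleotide reductase subunit (1.01, adjusted p = 0.0457), and Tmx1 (0.78, adjusted p = 0.00914), and lower for Sesn2 (-0.64, adjusted p = 0.0431). The 0.5 ppm effect was higher for Msrb3 (0.96, adjusted p = 0.0459), Msrb1 (0.66, adjusted p = 0.0264) and Mlxip, the glucose-sensing transcription factor MondoA, which activates Txnip (0.46, adjusted p = 0.0356), and lower for Gpx2, a glutathione peroxidase of epithelia (-0.79, adjusted p = 0.0276). With 1 array left out, the calls were lost in 13 of 20 fits for Rrm2, 11 of 20 for Sesn2, 5 of 20 for Sesn3 at 50 ppm, 14 of 19 for Msrb3, 5 of 19 for Msrb1, 9 of 19 for Mlxip and 7 of 19 for Gpx2. Those of Txndc12, Txndc17 and Tmx1 were lost in 0 of 20, but each was lost under another setting. Txndc17 was not called with the mean of all probe sets (-0.34, adjusted p = 0.0974). Txndc12 was not called with hybridization controls as a covariate (-0.41, adjusted p = 0.0746). With poly-A spikes as a covariate Tmx1 (0.60, adjusted p = 0.149) and Sesn3 at 50 ppm (1.54, adjusted p = 0.0924) were not called. Rrm2, Sesn2, Msrb3 and Mlxip also lost their calls under other settings.

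The lists as wholes stayed near all genes at 50 ppm of 12 weeks, where the median difference over all genes was -0.04. The medians were -0.04 for glutaredoxins and methionine sulfoxide reductases, 0.01 for peroxide and superoxide enzymes and -0.0042 for selenoprotein synthesis. They were 0.12 for thioredoxin clients, -0.09 for the arrestin and Txnip transcription genes and 0.06 for the NRF2 pathway.

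Over the 49 arrays the non-member gene with the pattern most like Txn2 was Mgat4b (Pearson's r = 0.88) and the one most like Prdx2 was Trappc2l (0.89), followed by Ndufa1 for Txn1 (0.87). These 3 members were chosen for this description after their values were seen, and the arrays share scaling and tissue makeup.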

How the data were processed

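RNA of 49 whole bladders was hybridized to 1 array each. The deposited values are linear intensities per probe set, scaled with GCOS 1.0 per the submitters' processing notes, and their 2% trimmed mean lay between 500.003 and 500.004 on every array. Array medians spanned 0.461 log2 units. Of 45101 probe sets, 64 were controls, 34945 had 1 gene, 932 several and 9160 none. The brightest single-gene probe set by mean stood for a gene. Values were tested as log2(intensity + 16) with limma 3.58.1 in R 4.3.3 (group means per harvest, trended eBayes) on 14646 genes above the array's 40th percentile in at least 4 arrays, adjusted by Benjamini-Hochberg. Slopes run over dose ranks. Harvest comparisons use all arrays. The script was tested on simulated data. Named genes are the members and, from each pathway list, those called in a comparison or up to 3 of smallest p; Srxn1, Txnrd3, Prdx4 and Gclm at uncalled doses were added after their values were seen. Members and gene lists were chosen with earlier results of these data known. Alternatives covered the offset, normalization, filter, probe sets, covariates, replicate block and leaving out arrays. The number of arrays limits the precision.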

Additional observations from a re-analysis of the deposited data

Results flagged for a closer look

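In 70 groups of 4 or 5 arrays (7 genes in 10 groups), 3 held an array far from the others by Dixon's criterion, and chance alone marks about 1 in 20. Txn2 stood at 10.85 in replicate 2 of 2 ppm at 1 week, where the other 4 arrays ran from 11.12 to 11.22. Txnip stood at 13.68 in replicate 3 of 2 ppm at 1 week, with the others from 13.77 to 13.80. The RNA integrity numbers of that group ran from 7.2 to 9.7, and where given those of all other groups from 8.4 to 9.8. The lowest number, 7.2, belonged to replicates 3, 4 and 5 of that group, among them the Txnip outlier but not the Txn2 outlier. The part of RNA integrity in these outliers was not tested. Prdx2 stood at 12.76 in replicate 1 of 0.5 ppm at 12 weeks, with the others from 13.14 to 13.21, and Txn2 and Txnrd2 were also lowest of their group on that array, at 10.62 and 8.11.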

How the results depend on the processing

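Under other settings 1014 of 1015 values for the genes of the set and the counts over them kept their side of the threshold, and 1513 of 1519 did with 1 array left out. With another probe set of the gene in place of the brightest, 146 of 150 values were the same. Calls in other probe sets of Txnrd1, Txnrd2 and Txnip are given with those genes. The count called between the water groups was 1 instead of 0 with the mean of all probe sets (Txnrd1, 0.50, adjusted p = 0.00593). With 1 array left out the count ran from 0 to 1 for 50 ppm at 12 weeks, the 12-week slope and the harvest differences of the 10 and 50 ppm effects, through Txn1 or Txn2 as given with those genes. The dimmest Txnrd1 probe set gave -1.24 for the harvest difference of the 50 ppm effect, against 0.02 in the brightest. With the poly-A covariate Arrdc3 at 50 ppm of 12 weeks was -0.020. Over all genes the counts called depend more on the setting: at 50 ppm of 12 weeks 593 became 1 with the poly-A covariate, 285 with the RNA integrity covariate, 357 with the mean of all probe sets and 1187 with all arrays in one fit, and ran from 47 to 1617 with 1 array left out. The 12-week slope gave 768 genes, 0 with the poly-A covariate, 155 with the hybridization covariate and 268 to 1892 with 1 array left out. At 10 ppm of 1 week 114 genes became 72 to 736 and at 0.5 ppm of 12 weeks 77 became 0 to 459. The causes were not tested.

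Replicate numbers did not pair the samples: same-numbered arrays correlated at a mean of -0.010 at 1 week and 0.018 at 12 weeks. With a replicate block 0 genes of the set were called in every comparison, and Txn1 at 10 ppm of 1 week stayed at 0.19 (adjusted p = 0.217).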
